A study of Mus musculus with 19 samples.

Results

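Of the 3516 genomic sites at which a Dam fusion of the nucleoporin Nup153 left a DamID peak in mouse embryonic stem cells (ESC), 1307 lay outside genes. A site was placed there when it was more than 2 kb from the start of every transcript in the deposited expression table and shared no base with any of the 24016 transcripts in it. These sites made up 37.2% of all Nup153 peaks (Wilson 95% interval 35.6 to 38.8). The other peaks were 978 in gene bodies (27.8%) and 1231 at promoters, where the peak came within 2 kb of a transcript's start (TSS) (35.0%). The table holds 1 transcript per gene symbol, so a site counted as outside genes may still lie in a transcript that the table lacks.

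The samples came from 3 kinds of cells. The DamID cells were E14 ESC without a hairpin, grown on irradiated mouse embryonic fibroblasts with LIF, infected with a virus that drives Dam fused to Nup153, Oct4 or GFP from a heat shock promoter, and selected in puromycin. The knockdown cells were E14 ESC that carried a lentiviral hairpin against Nup153, either #2 or #4, and their control was the same line with a non-target hairpin, with puromycin selection in all of them. The neural progenitors (NeuP) carried no hairpin and were derived from embryoid bodies with Noggin and grown in FGF2 and EGF, and no line is named for them. RNA came from 2 NeuP libraries, 2 knockdown libraries (1 per hairpin) and 1 control library. ChIP gave 1 list per antibody and cell: Oct4 in hairpin #2 and control ESC, Ring1B in NeuP, hairpin #2, hairpin #4 and control ESC, and Cbx7 in control ESC. In the headers, the read folders of Ring1B of hairpin #2 and of Cbx7 are named with "si" where the labels give shRNA, and that of control Ring1B names no control. The lists are called here by their labels, and no value in them checks the knockdown in the ChIP cells.

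Nup153 sits in the nuclear basket of the nuclear pore, on the side that faces chromatin. In DamID, a bacterial methylase fused to the protein marks GATC sites that come near it, so a peak records contact with DNA and may include contact away from the pore. Polycomb repressive complex 1 (PRC1) silences developmental genes. In it Ring1B ubiquitinates histone H2A and Cbx7 reads methylated histone H3. Oct4 is a transcription factor that ESC need to stay pluripotent and that often binds enhancers far from genes.

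The RNA libraries held 24.3 to 32.2 M fragments, recovered from the steps between low values. The summed level of 5 ESC markers was 87.5 to 113 FPKM (fragments per kilobase of transcript and per unit of depth) in NeuP and 1035 to 1188 FPKM in the 3 ESC libraries, and that of 5 neural progenitor markers was 2747 to 3545 FPKM in NeuP and 7.49 to 12.8 FPKM in ESC. Most of the NeuP neural sum was Fabp7, at 2454 and 3143 FPKM. Nes, Pax6 and Olig2 were also above ESC in both NeuP libraries. Sox1 was not, with 2.16 and 1.82 FPKM in NeuP and 0.948 to 1.84 FPKM in ESC. Sox2, which both cell types express, was the one ESC marker that stayed high in NeuP, and 0 of the 20 markers was listed at 0 in every library. Summed over 5 genes each, fibroblast markers reached 35.2 to 76.3 FPKM in NeuP and 5.79 to 9.88 FPKM in ESC, and endoderm markers 12.8 to 13.3 FPKM in NeuP, 39.995 and 57.4 FPKM in hairpins #2 and #4, and 27.1 FPKM in control ESC. The NeuP fibroblast sum was mostly Col3a1 (24.9 and 46.1 FPKM) and Postn (3.60 and 23.2 FPKM), while Col1a1 had 0.375 and 1.53 FPKM in NeuP and 1.82 to 4.77 FPKM in ESC, and Col1a2 0.012 and 0.235 FPKM in NeuP and 1.11 to 2.79 FPKM in ESC. The NeuP endoderm sum was nearly all Dab2 (13.2 and 12.6 FPKM), with Sox17 listed at 0 and Gata4 and Gata6 at 0.013 FPKM or less. The part of these other cells in the results was not tested. Nup153 itself had 12.8 and 29.1 FPKM in NeuP, 20.9 and 17.4 FPKM with hairpins #2 and #4, and 39.4 FPKM in the control. The log2 differences from the control were -0.88 with hairpin #2 and -1.14 with hairpin #4. The fitted knockdown difference (-1.01, SE 0.55) did not pass the test (limma, adjusted p = 0.897). The spread in that fit comes from the 2 NeuP libraries as well as from the 2 hairpins.

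The sequences shown here belong to genes whose nearest DamID sites carry the results below. The bases are those before the gene start in RefSeq (GRCm38.p6), read along the gene, while all peak positions are in mm9. In Gsx1 the capitals mark the 15 CpG dinucleotides of a gene whose TSS had control Ring1B and Cbx7 peaks within 2 kb. In Nanog and Zfp42 they mark ATGCAAA on either strand, the core of the octamer that Oct4 can bind, which starts 75 and 185 bases before the gene start. Of 27025 RefSeq promoter windows reaching 250 bases before and 50 after the start, 4.59% held that motif. Neither GATC nor ACAATGG, searched in the same way, overlapped it in either gene, though both stretches hold GATC elsewhere. In Nanog the motif is closely followed by acaatgt, which differs from ACAATGG only in its last base. Nanog has 2 such promoter windows and the upstream one is shown.
Gsx1, chr5:147188446-147188695, plus strand: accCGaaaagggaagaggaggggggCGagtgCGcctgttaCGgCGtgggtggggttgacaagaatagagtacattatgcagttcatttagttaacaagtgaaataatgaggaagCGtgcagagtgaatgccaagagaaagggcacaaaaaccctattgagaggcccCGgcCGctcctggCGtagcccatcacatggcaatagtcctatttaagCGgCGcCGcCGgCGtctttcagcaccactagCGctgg
Nanog, chr6:122707239-122707488, plus strand: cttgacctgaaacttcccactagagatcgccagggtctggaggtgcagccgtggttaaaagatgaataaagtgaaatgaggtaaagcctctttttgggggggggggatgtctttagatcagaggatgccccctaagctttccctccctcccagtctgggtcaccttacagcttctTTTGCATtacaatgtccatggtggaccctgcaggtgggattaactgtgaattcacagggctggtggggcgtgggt
Zfp42, chr8:43307010-43307259, minus strand: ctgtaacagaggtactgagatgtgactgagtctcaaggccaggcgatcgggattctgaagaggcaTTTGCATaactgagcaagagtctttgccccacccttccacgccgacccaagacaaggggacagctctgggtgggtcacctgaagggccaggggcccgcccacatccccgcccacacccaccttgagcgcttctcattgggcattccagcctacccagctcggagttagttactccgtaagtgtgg
The microRNA gene Mir290a, whose primary transcript had the highest fitted knockdown difference from control among nearest genes that had a site within 100 kb and kept 1 direction with both hairpins, makes these mature forms, with the seed (bases 2 to 8) in capitals:
mmu-miR-290a-5p: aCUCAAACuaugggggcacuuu
mmu-miR-290a-3p: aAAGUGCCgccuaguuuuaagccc

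Most sites outside genes lay within 50 kb of a gene start, and some lay much farther. Their median distance to the nearest TSS, measured from the nearest peak edge, was 35.7 kb (quartiles 13.6 and 93.6 kb), and the median distance to the nearest edge of any transcript was 24.4 kb. In all, 237 sites lay 2 to 10 kb from a TSS, 545 lay 10 to 50 kb, 367 lay 50 to 200 kb and 158 lay beyond. The farthest was 1899 kb from any TSS, at chr3:24049174-24051674, and carried Ring1B in hairpin #2 and control ESC. The members closest to the 2 kb limit lay 2011, 2016 and 2053 bp from a TSS, and the promoter peaks closest to it 1977, 1976 and 1955 bp. The gene with the nearest TSS was also the nearest by its edge for 1093 of the 1307 sites (83.6%). Of the sites, 871 (66.6%) lay upstream of the gene with the nearest TSS. Sites that touch a transcript are left out by the rule, so a downstream site had to lie past the gene's end. The upstream share thus follows in part from the rule and is not a result about the sites. Sites outside genes made up 22.3% of the 229 Nup153 peaks on chromosome 7 and 49.2% of the 199 on chromosome 13, the lowest and highest shares of the 20 chromosomes in the list. Oct4 DamID peaks outside genes, 1620 of 3570, had a median of 38.4 kb. The share beyond 50 kb was 40.2% for Nup153 and 41.0% for Oct4, a difference of -0.82 percentage points whose 95% Newcombe interval (-4.39 to 2.76) included 0.

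The DamID lists hold no peak heights, and 901 of the 1307 sites (68.9%) had the smallest width in the list, 2501 bp. The intervals used here for shares (Wilson) and for differences of shares (Newcombe) are at 95% and cover counting error over peaks only. Each ChIP list stands for 1 library and each DamID list for 2 replicates, so they say nothing of the spread between cultures.

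Sites outside genes were the class of Nup153 peaks that most often overlapped the Oct4 DamID and Oct4 ChIP lists. Oct4 DamID covered 654 of them (50.0%, 47.3 to 52.7), against 45.8% of gene body peaks and 28.8% of promoter peaks. The difference was 4.23 points from gene bodies (0.09 to 8.35) and 21.2 points from promoters (17.5 to 24.9). The gene body difference no longer excluded 0 when a peak within 1 kb counted as overlap (3.95, -0.19 to 8.07) or when 50% of the peak had to be covered (3.90, -0.24 to 8.01). These 654 sites met 653 of the 3570 Oct4 DamID peaks (18.3%). The centres lay close together, with a median offset of 178 bp, and 511 of the 654 (78.1%) were within 500 bp.

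Oct4 ChIP peaks, which are 175 or 177 bp wide, were fewer. They lay in 118 sites (9.03%) in hairpin #2 ESC and in 116 sites (8.88%) in control ESC, and 90 sites were on both lists. In control ESC the share was 6.54% for gene body peaks and 3.17% for promoter peaks, a difference of 2.33 points (0.09 to 4.50) and 5.71 points (3.89 to 7.57). Without chromosome 8 the gene body difference was 2.15 points and its interval included 0 (-0.15 to 4.37). The 116 sites met 121 of the 1462 control Oct4 ChIP peaks (8.28%), and 107 of the 116 were also in the Oct4 DamID list. Those 107 were only 16.4% of the 654 sites with Oct4 DamID.

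**Figure D1:**
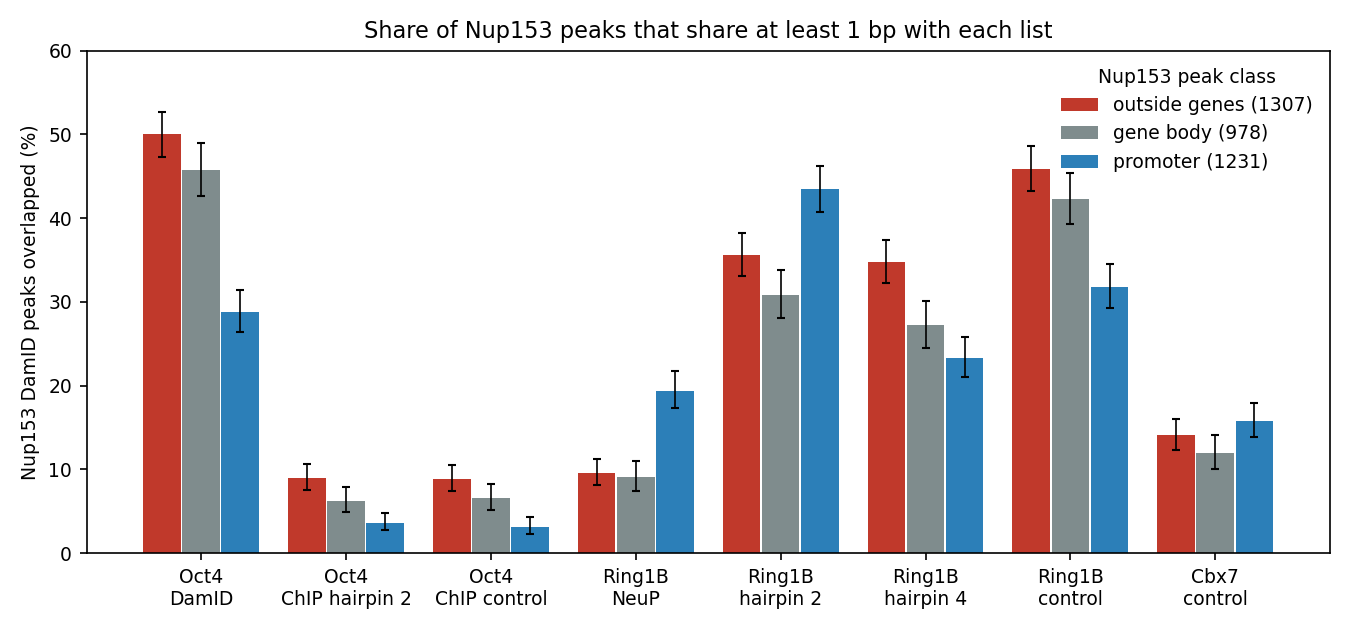
Share of Nup153 DamID peaks (%) that share at least 1 bp with each of 8 other peak lists, for 1307 peaks outside genes, 978 in gene bodies and 1231 at promoters, with Wilson 95% intervals as error bars. Peaks outside genes reach 50.0% with Oct4 DamID and 45.9% with control Ring1B, while promoter peaks lead in Ring1B of NeuP (19.4%) and of hairpin #2 (43.5%).

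Control Ring1B overlapped 600 sites outside genes (45.9%, 43.2 to 48.6), against 42.3% of gene body peaks and 31.8% of promoter peaks. The excess over promoters was 14.1 points (10.3 to 17.8), and that over gene bodies, 3.58 points, had an interval that included 0 (-0.54 to 7.66). These sites met 669 of 11916 control Ring1B peaks (5.61%), with a median centre offset of 378 bp. Ring1B peaks were much narrower, with a median of 501 bp, so the peaks covered at least 50% of the site in only 3.98% of the 1307. Cbx7 overlapped 184 sites (14.1%) and they met 194 of 12454 Cbx7 peaks (1.56%). That share differed from neither gene bodies (11.96%, difference 2.11, -0.70 to 4.86) nor promoters (15.8%, difference -1.68, -4.47 to 1.09) beyond the counting interval. Of the 184 sites with Cbx7, 156 (84.8%) also had control Ring1B, whereas 444 sites had Ring1B without Cbx7.

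Ring1B and Cbx7 were more frequent at sites with Oct4 than at sites without it. Of the 116 sites with control Oct4 ChIP, 111 (95.7%) had control Ring1B, against 489 of the 1191 sites without it (41.1%), a difference of 54.6 points (48.6 to 58.3). Cbx7 was at 54 of the 116 (46.6%), against 130 of the 1191 (10.9%). The Oct4 DamID list split the sites in the same direction, with Ring1B at 64.4% of the 654 sites on it and at 27.4% of the 653 others (difference 36.96, 31.8 to 41.8), and Cbx7 at 21.4% and 6.74%. Ring1B of NeuP did not follow: it lay at 12.1% of the sites with Oct4 ChIP and 9.32% of those without, a difference of 2.75 points whose interval included 0 (-2.32 to 10.1).

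**Figure D2:**
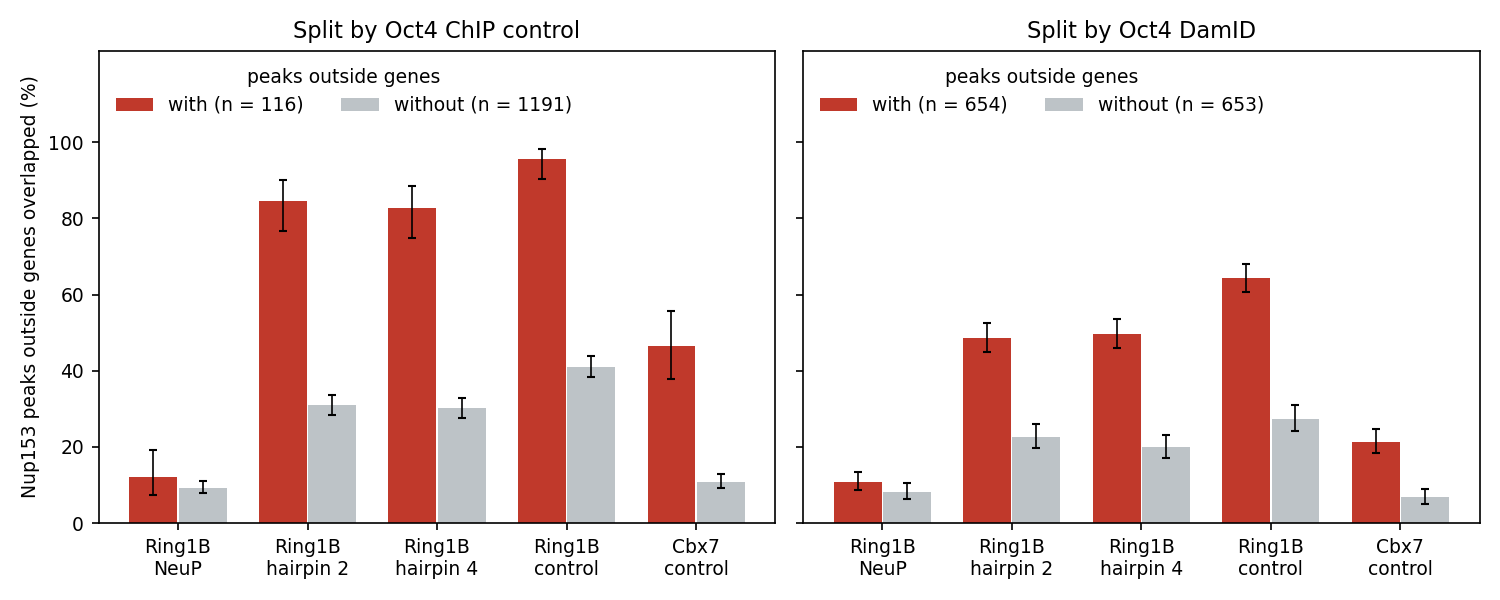
Share of Nup153 DamID peaks outside genes (%) that overlap Ring1B in NeuP, hairpin #2, hairpin #4 and control ESC and Cbx7 in control ESC, for sites with and without an Oct4 ChIP peak of control ESC (left) and with and without an Oct4 DamID peak (right), with Wilson 95% intervals. The bars with Oct4 ChIP reach 95.7% for control Ring1B and 12.1% for Ring1B of NeuP.

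Of the 600 sites with control Ring1B, 421 were also marked by the Oct4 fusion. Among peaks outside genes, 653 were found with Nup153 and not with Oct4, and 971 with Oct4 and not with Nup153. Control Ring1B lay at 27.4% of the Nup153-only sites and 44.9% of the Oct4-only sites (difference -17.5, -22.0 to -12.8), Cbx7 at 6.74% and 13.9% (difference -7.17, -10.0 to -4.18), and control Oct4 ChIP at 1.38% and 10.4% (difference -9.02, -11.2 to -6.88). Ring1B of NeuP went the other way, at 8.27% of the Nup153-only sites and 4.94% of the Oct4-only sites (difference 3.33, 0.89 to 5.98).

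In knockdown cells fewer of the sites carried Ring1B. It lay at 466 sites with hairpin #2 (35.7%) and 455 with hairpin #4 (34.8%), against 600 in the control (45.9%). Of the 600 control sites, 380 (63.3%) were on the hairpin #2 list, 399 (66.5%) on the hairpin #4 list, 308 (51.3%) on both and 129 (21.5%) on neither, and 122 sites had Ring1B in a hairpin list only. The depth of the lists ran the other way, with 30.8 M tags for hairpin #2 and 9.95 M for hairpin #4, against 4.99 M for the control, and the hairpin #2 list was larger (15604 peaks, and 12117 for hairpin #4, against 11916). There was 1 library each, and the part of depth in these counts was not tested. Of the sites with control Ring1B, 66.5% outside genes and 50.3% at promoters were on the hairpin #4 list, a difference of 16.2 points (9.98 to 22.4). For hairpin #2 these shares were 63.3% outside genes and 60.7% at promoters, and the interval of their difference (-3.51 to 8.81) included 0. The lists of hairpin #2 and hairpin #4 also differed in which class led: Ring1B of hairpin #2 lay at 35.7% of sites outside genes and 43.5% of promoter peaks (difference -7.81, -11.6 to -4.002), and Ring1B of hairpin #4 at 34.8% and 23.3% (difference 11.5, 7.98 to 15.0).

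In NeuP, Ring1B was rare at these sites. It lay at 9.56% of them, against 45.9% in control ESC, although the NeuP list had more peaks (14556) and more tags (33.2 M). Only 68 of the 600 control Ring1B sites (11.3%) were on the NeuP list, and 57 sites had it in NeuP and not in control ESC. That share was 12.9 points lower outside genes than the 24.2% at promoters (interval of the difference -17.9 to -8.04). Against the 12.6% in gene bodies the difference was -1.23 points and its interval included 0 (-5.45 to 2.76). Per the file headers the NeuP list was called against IgG from ESC, and the part of that choice was not tested.

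Overlap also varied with distance and width. Control Ring1B lay at 51.5% of the 237 sites 2 to 10 kb from a TSS (45.1 to 57.8) and at 28.5% of the 158 sites beyond 200 kb (22.0 to 36.0), with 49.5% and 44.4% between. Oct4 DamID was at 46.4% of the nearest group and 37.97% of the farthest, and at 53.4% and 52.6% of the groups from 10 to 50 kb and from 50 to 200 kb. Ring1B of NeuP lay at 13.9% of the nearest group and 3.16% of the farthest. For Cbx7 the shares were 12.7%, 16.0%, 13.4% and 11.4% from near to far, and the intervals of all 4 overlapped. Sites wider than 2501 bp were overlapped more often, with control Ring1B at 64.0% of 406 wider sites and 37.7% of the 901 at the smallest width.

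**Figure D3:**
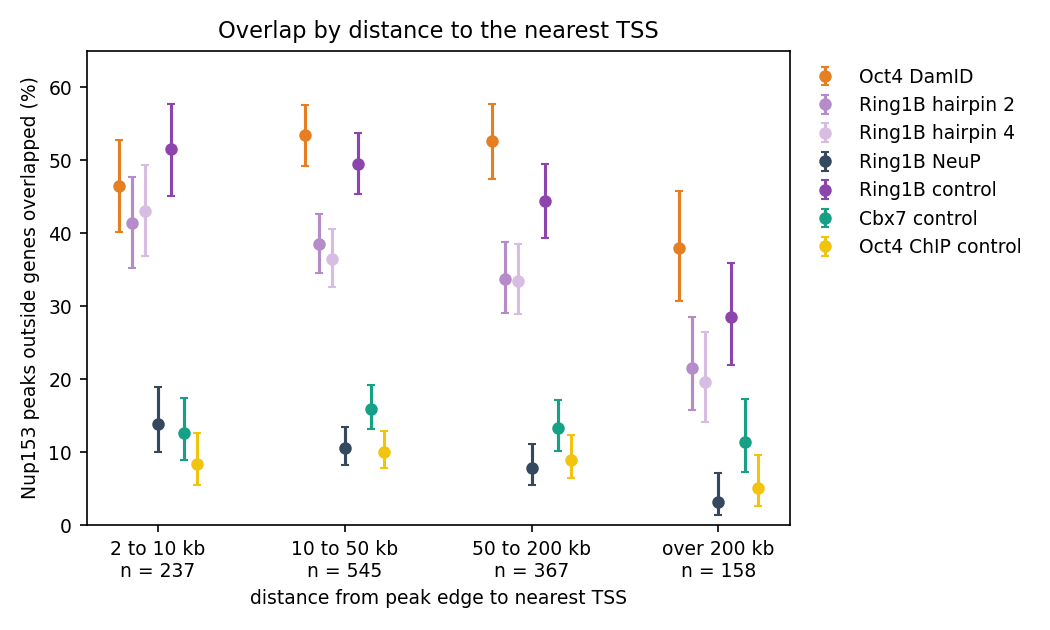
Share of Nup153 DamID peaks outside genes (%) that overlap each list, in 4 ranges of distance (kb) from the peak edge to the nearest TSS, with Wilson 95% intervals. Control Ring1B is at 51.5% in the nearest range and 28.5% in the farthest.

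Of the 1307 sites, 377 (28.8%) were on none of the 8 other lists, 276 were on 1 and 2 were on all 8. One of these 2, at chr17:15516199-15518699, lay 3.41 kb upstream of Dll1, which encodes a ligand of the Notch receptors. The other, at chr5:147966413-147969656, lay 30.6 kb upstream of Gsx1, a homeobox gene of the developing brain whose CpG-rich start is printed above. Gsx1 was under 0.5 FPKM in every library, at 0.018 and 0 FPKM in NeuP, 0.417 and 0.244 FPKM with hairpins #2 and #4, and 0.245 FPKM in the control, so it was not tested. Another 46 sites were on 7 lists. All 10 of those that were described further because they were the widest lacked either the NeuP Ring1B list (9 sites) or Cbx7 (1 site). That last site, at chr13:96302790-96308100, lay 7.60 kb upstream of F2rl1, which encodes a protease-activated receptor. F2rl1 had 0.011 and 0.015 FPKM in NeuP, 21.9 and 23.1 FPKM with hairpins #2 and #4, and 17.4 FPKM in the control, with no overlap between NeuP and ESC, and it fell in NeuP (log2 change -4.18, SE 0.17, adjusted p = 0.00238 in limma).

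Some sites lay close together. Linking sites less than 50 kb apart gave 145 runs that held 339 sites (25.9%), and 30 runs had 3 or more. The largest held 9 sites over 163 kb at chr12:88111713-88274766, around Irf2bpl and its neighbours: all 9 carried Oct4 DamID, 7 control Ring1B and 4 Ring1B of NeuP. A run of 6 sites over 81.8 kb, at chr5:118883622-118965430 upstream of Med13l, which encodes a Mediator kinase module subunit, had Oct4 DamID at 5 sites and control Ring1B at 3, and Ring1B of NeuP at 0. By gene, 38 genes were nearest to 3 or more sites and took 134 of them. Mycn, a MYC family transcription factor, was nearest to 4, all with Oct4 DamID, between 19.7 and 157 kb from its start. Jarid2, a cofactor of Polycomb repressive complex 2, was nearest to 3, again all with Oct4 DamID, of which 2 had control Ring1B and 1 Cbx7.

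The sites had 1087 nearest genes, and the starts of these genes more often carried peaks themselves. A Nup153 peak lay within 2 kb of the TSS of 127 of them (11.7%), against 5.63% of the other 22929 genes, a difference of 6.05 points (4.25 to 8.12). For control Ring1B the shares were 15.5% and 7.75% (difference 7.71, 5.65 to 10.0), for Ring1B of NeuP 16.4% and 10.2% (6.22, 4.10 to 8.57) and for Cbx7 16.1% and 13.1% (3.02, 0.91 to 5.36). For the 704 genes with a site within 50 kb, the Cbx7 shares were 13.5% and 13.2%, and the interval of their difference included 0 (-2.08 to 3.04). Being nearest is a statement of position only, and no contact between a site and a gene was measured.

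Gene expression in NeuP was set against control ESC with limma on log2(FPKM + 1), in 1 fit of all 5 libraries which takes the spread of the lone control from that of the other libraries. Of the 1087 nearest genes, 735 reached 1 FPKM in some library and were tested, of 13750 genes tested in all. Among the 735, 238 (32.4%) were lower in NeuP at an adjusted p under 0.05, against 24.9% of all genes tested, and 150 (20.4%) were higher, against 18.3%. Within 50 kb of a site the 504 tested genes were lower in 36.9% and higher in 14.3%. With either hairpin library left out these shares were 14.9% or 15.0% lower and 1.39% or 1.40% higher, and with either NeuP library left out 55.8% or 59.8% lower and 25.8% or 26.8% higher. In the fit of all libraries their median log2 difference was -0.62, against -0.26 over all genes. They were also more highly expressed in ESC, with a median of 5.28 FPKM in the control over the 704 genes, tested or not, against 0.83 FPKM over the whole table, and the part of level in these shares was not tested. Leaving out 1 library moved the counts: 25 higher and 99 lower without hairpin #2, 25 and 100 without hairpin #4, 244 and 353 without the first NeuP library, and 237 and 387 without the second. The share lower stayed above that of all genes in each case, at 13.5% against 10.7%, 13.7% against 10.8%, 48.7% against 44.2% and 53.3% against 49.0%. The share higher fell below that of all genes with either NeuP library left out. No label ties the libraries to separate cultures, and the p-values cover only the spread between these libraries. In bulk RNA, fewer cells of a type cannot be told apart from less RNA per cell.

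The shares varied with what lay on the site, beside 24.9% lower and 18.3% higher over all genes tested. Near sites with control Oct4 ChIP, 33 of 79 tested genes (41.8%) were lower in NeuP and 14 (17.7%) higher. Near sites with control Ring1B, 39.3% of 389 were lower and 16.5% higher. Near sites with Ring1B of NeuP, 19 of 83 were lower (22.9%), near the share of all genes, and 20 higher (24.1%). Near the sites on none of the 8 lists, 40 of 203 (19.7%) were lower and 58 (28.6%) higher, and without the second NeuP library that order turned, with 87 of 197 lower and 80 higher, as it did with either hairpin library left out (19 lower and 15 higher without #2, 18 and 15 without #4). The other counts moved too. With either hairpin library left out, 12 of 79 genes were lower and 2 higher near sites with Oct4 ChIP, 15.9% or 16.2% were lower and 2.31% or 2.32% higher near sites with control Ring1B, and 7 were lower and 4 higher near sites with Ring1B of NeuP. With the first or the second NeuP library left out, the lower share was 55.7% or 60.8% near Oct4 ChIP, 57.4% or 59.8% near control Ring1B and 37.8% or 41.0% near Ring1B of NeuP, and the higher share 31.6% or 22.8%, 27.4% or 27.3%, and 45.1% or 44.6%. In the fits with a library left out the shares of all genes moved as well, so 24.9% and 18.3% are not the background there. These groups share genes and were not tested against each other.

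**Figure D4:**
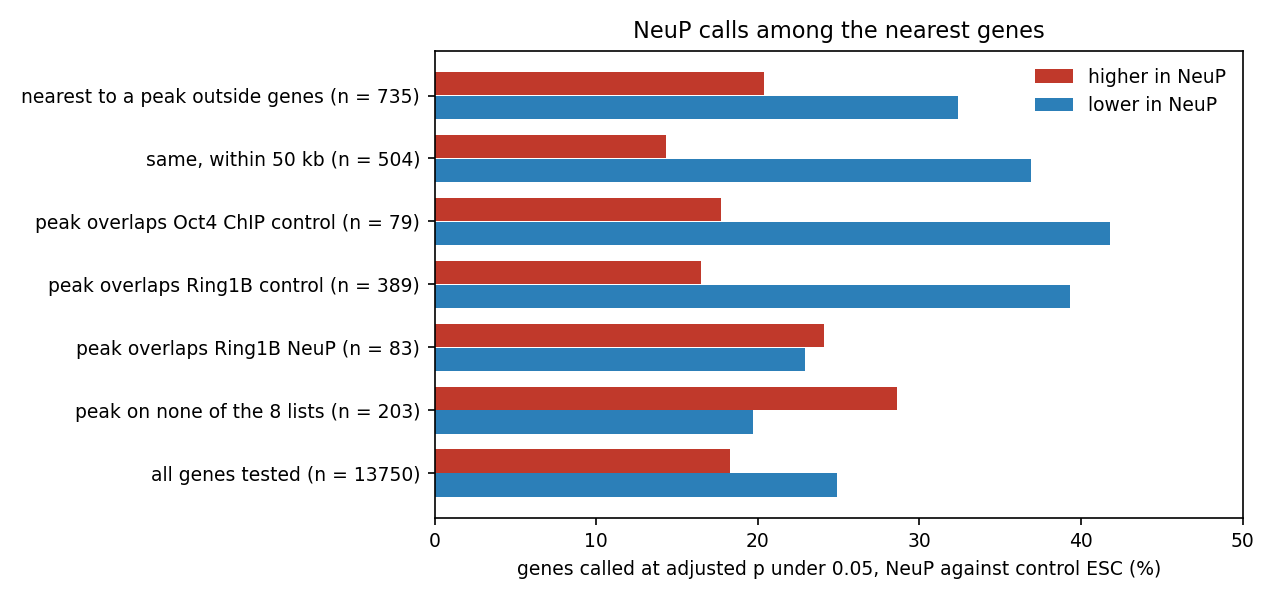
Percentage of tested genes called higher or lower in NeuP than in control ESC at an adjusted p under 0.05 (limma), for genes nearest to Nup153 DamID peaks outside genes and for all 13750 genes tested. Genes near sites with Oct4 ChIP were lower in 41.8% and all genes in 24.9%.

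The nearest genes included many from a list of genes linked to pluripotency. Of 30 on a list of pluripotency genes, 14 (46.7%) were the nearest gene to at least 1 site and accounted for 20 sites, against 4.53% of all 24016 genes. All 14 were called lower in NeuP, against 24.9% of all genes tested. Their median log2 difference was -3.70, against -0.26 over all genes. The homeobox factor Nanog had 0.532 and 0.870 FPKM in NeuP, 335 and 373 FPKM with hairpins #2 and #4, and 246 FPKM in the control (NeuP log2 change -7.19, SE 0.24, adjusted p = 0.00238). Its site, at chr6:122652350-122654850, lay 2.66 kb upstream, on 6 of the 8 lists, and the missing 2 were those of Oct4 ChIP. Zfp42, a zinc finger gene used as an ESC marker, had 0.277 and 0.252 FPKM in NeuP, 104 and 109 FPKM with the hairpins, and 76.6 FPKM in the control (log2 change -5.94, SE 0.18, adjusted p = 0.00238), with a site at 12.6 kb. NeuP and ESC did not overlap in either gene.

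The other pluripotency genes had sites at varied distances. Klf4, a Kruppel-like factor used in reprogramming, had a site at chr4:55487293-55489793, 55.6 kb past its start, on 7 lists with Ring1B of NeuP the missing one. Klf4 had 4.80 and 3.798 FPKM in NeuP, 47.5 and 46.9 FPKM with the hairpins, and 36.4 FPKM in the control. Esrrb, a nuclear receptor, had 0.126 and 0.570 FPKM in NeuP, 132 and 135 FPKM with the hairpins, and 119 FPKM in the control, and its site was 77.9 kb away. Mycn had 2.72 and 1.16 FPKM in NeuP, 32.0 and 34.3 FPKM with the hairpins, and 21.7 FPKM in the control. In each of these genes every NeuP value was below every ESC value. Lefty2, a secreted inhibitor of Nodal signalling with a site 2.05 kb from its start, was listed at 0 in both NeuP libraries and had 1.78 and 1.61 FPKM with the hairpins and 0.562 FPKM in the control, the lowest level of the 14 in the control. Sall4, a zinc finger factor, was nearest to 3 sites and Tet1, which oxidises methylated cytosine, to 2. With either hairpin library left out, not all of the 14 were called lower, and Klf4, Mycn and Tet1 were among those that were not. Lefty2 was not called with a pseudocount of 5 or after quantile scaling. The list was chosen with its direction in these samples known, so that direction is not independent evidence.

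**Figure D5:**
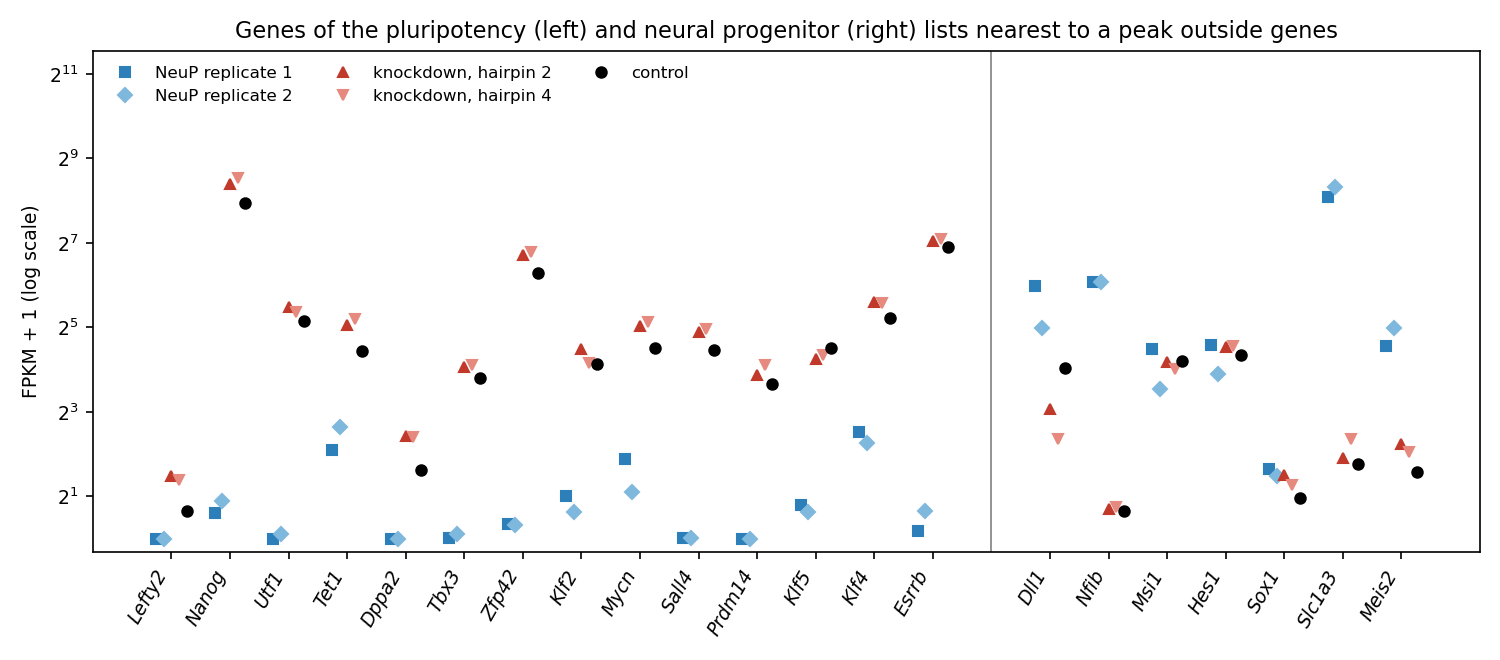
FPKM + 1 (log scale) in each of the 5 libraries for the 14 pluripotency genes and 7 neural progenitor genes that are nearest to a Nup153 DamID peak outside genes, ordered within each list by distance to the nearest such peak. For all 14 pluripotency genes both NeuP points lie below all ESC points, and for Dll1, Nfib, Slc1a3 and Meis2 both lie above all ESC points. How many of all genes separate in this way was not counted. Calls in limma at an adjusted p under 0.05 are a different measure. By it 24.9% of all genes tested were lower in NeuP and 18.3% higher, and Dll1 was not called.

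Of 30 genes on a list of neural progenitor genes, 7 (23.3%) were nearest to a site, with 1 site each, and 3 of the 7 rose in NeuP, against 18.3% of all genes tested. Leaving out 1 library moved that count. Without the first NeuP library the median log2 difference of the 7 was 0.95, with 2 below 0, against -0.18 over all genes. Without the second it was 1.95, with 0 below 0, against -0.34 over all genes. In the fit of all libraries it was 1.45. Nfib, a nuclear factor I gene, had 66.3 and 66.0 FPKM in NeuP, 0.614 and 0.693 FPKM with the hairpins, and 0.563 FPKM in the control (log2 change 5.42, SE 0.17, adjusted p = 0.00238). Its site lay 5.55 kb upstream and was on 4 lists, Ring1B of NeuP included. Slc1a3, a glutamate transporter of glial cells, had 273 and 321 FPKM in NeuP, 2.76 and 4.12 FPKM with the hairpins, and 2.41 FPKM in the control, with its site at 120 kb, and Meis2, a homeobox factor, had a site at 204 kb. Dll1 had 62.1 and 30.6 FPKM in NeuP, 7.39 and 4.16 FPKM with hairpins #2 and #4, and 15.4 FPKM in the control, and passed neither comparison (adjusted p = 0.12 in NeuP and 0.856 in knockdown). Of 35 regulators of other lineages only Pax2 was nearest to a site, and it was under 0.1 FPKM in every library.

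Among genes on none of these lists, the largest changes in NeuP went in both directions. Spry2, an inhibitor of receptor tyrosine kinase signalling, had 126 and 202 FPKM in NeuP, 9.97 and 11.1 FPKM with the hairpins, and 6.04 FPKM in the control (log2 change 4.51, SE 0.36, adjusted p = 0.00439). Fabp3, a fatty acid carrier with a site 2.14 kb away, had 0.098 and 0.065 FPKM in NeuP, 338 and 313 FPKM with the hairpins, and 454 FPKM in the control (log2 change -8.72, SE 0.19, adjusted p = 0.00238). Slc2a3, a glucose transporter with 2 sites 18.3 and 20.8 kb upstream, both with Oct4 DamID and control Ring1B, had 5.11 and 9.83 FPKM in NeuP, 525 and 529 FPKM with the hairpins, and 662 FPKM in the control (log2 change -6.35, SE 0.42, adjusted p = 0.00332). With either hairpin library left out, Spry2 and Slc2a3 no longer passed (adjusted p = 0.064 and 0.051).

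The knockdown gave no calls. Against control ESC, 0 of the 735 tested nearest genes were called in limma, as were 0 of all 13750 (0% in either direction), and voom on reads recovered from the FPKM also called 0. At an unadjusted p under 0.05 in limma there were 54 (7.35%), 40 of them higher. Over all genes there were 814 (5.92%), 617 of them higher, so most went up there too. The outcome changed with the libraries in the fit. With the 3 ESC libraries alone, 133 of 661 nearest genes (20.1%) were higher in knockdown, against 15.5% of all genes, and 51 (7.72%) lower, against 6.26%, in a fit whose spread comes only from the difference between the 2 hairpins. The 14 pluripotency genes had log2 differences from -0.22 to 0.79 with a median of 0.42, against 0.08 over all genes. Of the 14, 13 were above 0 and none passed. The median of all genes was above 0 as well, and the share of all genes above 0 was not counted.

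By size on the log2(FPKM + 1) scale, 6 nearest genes were at least 2-fold higher with both hairpins (0.816%, against 0.305% of all genes) and 2 at least 2-fold lower (0.272%, against 0.16%), with both hairpins set against the same control library. Mir290a, the first gene of a microRNA cluster that is abundant in ESC, had 0 FPKM in both NeuP libraries, 13.3 and 10.5 FPKM with hairpins #2 and #4, and 4.33 FPKM in the control (log2 difference 1.27, SE 0.21, adjusted p = 0.825). The transcript is 82 bp long and polyadenylated RNA was sequenced, so these values rest on 34 and 22 reads with the hairpins and 9 in the control, and speak of the primary transcript and not of the mature forms printed above. The site lay 11.3 kb upstream, at chr7:3199835-3207356, and carried Oct4 DamID and Ring1B of hairpins #2 and #4 and of the control. Krcc1, which encodes a protein rich in lysine, had 30.1 and 46.6 FPKM in NeuP, 9.91 and 13.5 FPKM with the hairpins, and 4.34 FPKM in the control (log2 difference 1.24, SE 0.38, adjusted p = 0.825). Among nearest genes with a site within 100 kb and 1 direction in both hairpins, the lowest fitted differences were those of Dll1, whose FPKM are given above (log2 difference -1.31, SE 0.57), and of Gadd45b, a stress response gene. Both fell short of 2-fold with hairpin #2 (log2 -0.964 for Dll1 and -0.996 for Gadd45b). Gadd45b had 2.30 and 1.21 FPKM in NeuP, 45.0 and 32.1 FPKM with the hairpins, and 90.7 FPKM in the control (log2 difference -1.23, SE 0.38, adjusted p = 0.825). These 4 genes were picked among those with both hairpin values on one side of the control, so that agreement is not a result. None of their differences passed the test.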

How the data were processed

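DamID marked contacts of Dam fusions in ESC, ChIP-seq mapped Oct4, Ring1B and Cbx7, and RNA-seq measured transcripts. Per the submitters' processing notes the tools included CASAVA 1.8.2, Bowtie2 2.1.0, STAR 2.2.0c, HOMER 4.6 and edgeR, with build mm9. Per the file headers, HOMER called ChIP peaks against IgG from ESC, with the histone style for Ring1B and Cbx7 and the factor style for Oct4. The sources used here do not give how DamID replicates and the GFP fusion were combined. The authors deposited RNA as FPKM per transcript, and the peak lists as start and end positions.

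Peaks were sorted by distance from the nearest peak edge to a TSS, and an overlap needed 1 bp. Shares carry Wilson intervals and differences Newcombe intervals at 95%, which stand in for tests. FPKM were tested as log2(FPKM + 1) with limma 3.58.1 (R 4.3.3) on the 13750 of 24016 transcripts that reached 1 FPKM in a library, with a trend, 2 residual degrees of freedom and Benjamini-Hochberg adjustment at 0.05. Low values gave whole reads in 100% of cases within 0.1 read, and voom on those reads was added after seeing the data. Overlaps and fits were tested on simulated data. Other steps used Python 3.11.15, pandas 2.3.3 and scipy 1.17.1.

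The members and gene lists were chosen with earlier results of these data known. The text names at most 25 genes besides markers, drawn from these: genes nearest to the 12 sites on most lists (wider first), to the 5 farthest sites, to the 5 largest runs or to 3 or more sites, the 6 largest rises and falls in NeuP and the 5 highest and lowest in knockdown (site within 100 kb), and nearest genes on the fixed lists. Promoter composition over gene sets was left out because too few genes had a RefSeq promoter, and peak sequences were not used here. One nearest gene that the rule names is not reported here.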

Additional observations from a re-analysis of the deposited data

How the results depend on the processing

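The number of sites outside genes stayed within 1.5 times under the 5 alternatives, and no difference of shares changed sign past its interval. TSS windows of 5 and 10 kb gave median TSS distances of 40.9 and 48.7 kb. Requiring 50% of the peak to be covered left shares of 0% for both Oct4 ChIP lists, 0.689%, 4.36%, 2.45% and 3.98% for Ring1B of NeuP, hairpin #2, hairpin #4 and control, and 0.918% for Cbx7, since those peaks are narrower than the sites. Counting a peak within 1 kb gave 38.4% for Ring1B of hairpin #2. Sites above the smallest width, taken because most share that width and the list could not be cut at its median, gave 61.6% for Oct4 DamID, 13.8% and 12.1% for Oct4 ChIP of hairpin #2 and control, 11.6%, 48.3%, 49.5% and 64.0% for Ring1B of NeuP, hairpin #2, hairpin #4 and control, and 21.2% for Cbx7.

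Some differences of shares, in percentage points, moved across the edge of their interval. From gene bodies, Oct4 DamID gave 3.90 at 50% covered, 3.95 within 1 kb and 4.48 with a 10 kb window. Oct4 ChIP of hairpin #2 gave 0 at 50% covered and 2.42 with a 10 kb window, and that of control gave 0, 2.14 and, without chromosome 8, 2.15. At 50% covered, both Oct4 ChIP differences from promoters were 0, Ring1B gave 0.680 (hairpin #2) and 0.403 (hairpin #4) from gene bodies and 0.580 (hairpin #4) and -0.774 (NeuP) from promoters, and Cbx7 gave -5.26 from promoters, now past its interval. Control Ring1B from gene bodies passed without chromosome 8 (4.78). Beyond the 50% rule, whose construction is given above, the cause was not tested.

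Leaving out 1 library gave 25 to 244 genes higher and 99 to 387 lower in NeuP, and 0 called in knockdown. Within 50 kb, 72 were higher in NeuP, where fewer genes were counted. Knockdown gave 2 higher and 6 lower without the filter, and 133 and 51 with the 3 ESC libraries alone. With quantile scaling the median NeuP difference of all genes was -0.06, not -0.26, with 173 nearest genes higher and 218 lower. No paired analysis was possible because the peak lists pool or hold single replicates and the control RNA is 1 library, so no pairs exist. Depth differs between Ring1B libraries and is unknown for DamID.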
